A study of Mus musculus with 7 samples.

Results

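Gene expression was measured in erythroblasts, the nucleated precursors of red cells, and the values described here are those of 9 genes of the B lymphocyte lineage in that sort: Cd79a, Cd79b, Blnk, Ms4a1, Igll1, Vpreb3, Ebf1, Pax5 and Spib. Every probe set whose platform annotation names 1 of these genes and no other was taken, which gave 16 of the 45037 probe sets tested and 9 of the 18193 genes with a probe set of their own. The genes were chosen on the genotype difference of some of them in these same values, as a trace of B cells in the sort, so that difference and every count of calls among them are a description and support nothing. The donors were Sod2+/+ and Sod2-/- littermates from matings of heterozygous mice that carry the Sod2tm1Cje allele, a germline deletion of exon 3, on the B6 background, and their fetal livers were taken at E13.5-16.5. Those cells reconstituted irradiated Ly5.1 congenic hosts of 11 to 15 weeks, female by the methods. In both groups the donors differ from the hosts at Ly5, but neither the labels nor the methods name that marker in the gate, and surviving host cells were not separated by it. Marrow cells were blocked with an antibody to CD16/32 and sorted as TER-119+ CD71+, propidium iodide negative, with medium to high forward scatter. Samples of both genotypes were sorted side by side on several instruments, and no source used here says which array came from which sort or instrument. The arrays are Sod2+/+ replicates 17, 29, 33 and 37 (n = 4) and Sod2-/- replicates 31, 35 and 39 (n = 3). No source used here gives the age of the chimeric mice at harvest.

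B cells arise in the bone marrow, where erythroblasts also mature. A developing B cell first carries the pre-B cell receptor, a heavy chain paired with the surrogate light chain, and later the B cell receptor, and both signal through the paired chains CD79A and CD79B to an adaptor and its kinases. EBF1 and PAX5 set up and hold this program, Spi-B acts in it later, and CD20, the product of Ms4a1, marks the cells from the late precursor stage on. None of these genes is a defining gene of the red cell lineage.

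The deposited values are log2 levels made by robust multi-array averaging (RMA), a method that scales arrays to each other and reduces the probes of a set to 1 value. Each difference below is Sod2-/- minus Sod2+/+ on that log2 scale, and a gene is represented by its brightest probe set unless another is named. Array medians ran from 4.45 to 4.54 and array 95th percentiles from 8.20 to 8.71, so the arrays were not on the same distribution at the bright end. The median over all genes was 0.02. The labels call the samples biological replicates but do not say whether each is 1 mouse or a pool, so that p-values cover only the spread from sample to sample, which may be technical, and 7 arrays give limited precision. Of 17 erythroid markers measured, limma called 0 lower and 0 higher (0 and 4 at an unadjusted p under 0.05), and the median difference was 0.13. Their summed linear level was 53814 to 56416 in Sod2+/+ and 55008 to 62061 in Sod2-/- arrays. Tfrc, which encodes CD71, had log2 values of 12.21 to 12.41 in Sod2+/+ and 12.43 to 12.57 in Sod2-/- samples, so the gate's own marker was bright in both genotypes. Hba-a1, an alpha globin gene, was the only 1 of the 17 no brighter than the median of all probe sets, at 4.18 to 4.55 on its own probe set over all 7 arrays. Probe sets that name several genes were not used. The study reported alpha globin among its most highly expressed transcripts, so this probe set does not stand for the level of alpha globin.

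The 250 bases before the start of each gene are shown for the 4 genes with a separated genotype difference and a RefSeq promoter entry, and for Igll1, whose genotypes overlapped. They are RefSeq sequences of GRCm38.p6, written 5′ to 3′ along the gene, and 7 of the 9 genes had an entry, with no entry used for Cd79b and Ms4a1. Capitals mark matches, on either strand, to 4 sets of letters tied to factors of this lineage: CCCNNGGG (the core bound by EBF1), ATTTGCAT (the octamer of the Oct factors), GAGGAAGT (an Ets site of the Spi-B type) and CAGGTG (an E box).
Cd79a, chr7:24897247-24897496, + strand: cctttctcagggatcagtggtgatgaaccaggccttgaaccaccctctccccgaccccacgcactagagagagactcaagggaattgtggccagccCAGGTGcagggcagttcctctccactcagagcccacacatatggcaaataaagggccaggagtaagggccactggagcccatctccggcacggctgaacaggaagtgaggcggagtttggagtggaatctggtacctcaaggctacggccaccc
Spib, chr7:44532072-44532321, - strand: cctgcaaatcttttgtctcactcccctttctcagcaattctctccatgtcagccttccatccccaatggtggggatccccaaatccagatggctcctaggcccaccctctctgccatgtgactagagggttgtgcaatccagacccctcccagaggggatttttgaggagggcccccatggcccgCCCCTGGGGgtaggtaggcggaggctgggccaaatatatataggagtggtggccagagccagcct
Vpreb3, chr10:75948050-75948299, + strand: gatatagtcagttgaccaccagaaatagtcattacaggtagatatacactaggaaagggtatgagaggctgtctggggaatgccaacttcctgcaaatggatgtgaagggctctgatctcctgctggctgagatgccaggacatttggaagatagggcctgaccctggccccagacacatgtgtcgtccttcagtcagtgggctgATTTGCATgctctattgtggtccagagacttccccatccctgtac
Blnk, chr19:40994222-40994471, - strand: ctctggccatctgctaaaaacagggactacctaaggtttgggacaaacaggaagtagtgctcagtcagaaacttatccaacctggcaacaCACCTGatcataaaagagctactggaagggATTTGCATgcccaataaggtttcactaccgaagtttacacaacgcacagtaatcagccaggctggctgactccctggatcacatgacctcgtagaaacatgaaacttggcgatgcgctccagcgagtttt
Igll1, chr16:16863986-16864235, - strand: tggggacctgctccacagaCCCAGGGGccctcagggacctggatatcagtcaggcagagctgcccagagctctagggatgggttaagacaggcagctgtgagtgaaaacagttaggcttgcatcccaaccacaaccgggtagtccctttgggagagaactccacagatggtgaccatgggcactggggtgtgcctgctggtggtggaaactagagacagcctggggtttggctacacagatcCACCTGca

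Of 32851 promoter windows of this length, 11.8% held the EBF1 core, 1.6% the octamer, 2.44% the Ets letters and 17.2% the E box. Vpreb3 held the octamer 45 to 38 bases before its start, and Blnk held it 130 to 123 bases before. Spib held 2 overlapping matches of the EBF1 core, from 65 to 57 bases before its start. Igll1 had the same core letters 231 to 224 bases before the start, and an E box at 8 to 3 bases. The windows of Cd79a and Blnk also held an E box, while no window of a member held the Ets letters. A match is a description of the letters and was not tested for binding, and a window without a match may hold a site spelled otherwise.

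On the arrays, 6 of the 9 genes were lower in every Sod2-/- sample than in any Sod2+/+ sample, and none was higher in every one. Over all 18193 genes, 2699 were lower without overlap and 1308 higher. The 6 are both receptor chains Cd79a and Cd79b, the adaptor Blnk, Ms4a1, Vpreb3 and Spib. Their differences ran from -0.78 for Blnk to -1.78 for Cd79a, and the median over all 9 genes was -0.80. Igll1, Ebf1 and Pax5 overlapped between genotypes. By limma, 6 of the 9 genes were below the adjusted threshold of 0.05 and lower, where 4.47% of all genes were, and 0 were higher, where 0.412% of all genes were. Of the 16 probe sets 8 were called lower, against 2.83% of all probe sets, and the same 8 had genotypes that did not overlap, against 10.2%. Nothing is read from these counts, since the same contrast chose the genes. Fewer B cells in the sort and less of these RNAs per cell cannot be told apart in bulk samples.

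**Figure D1:**
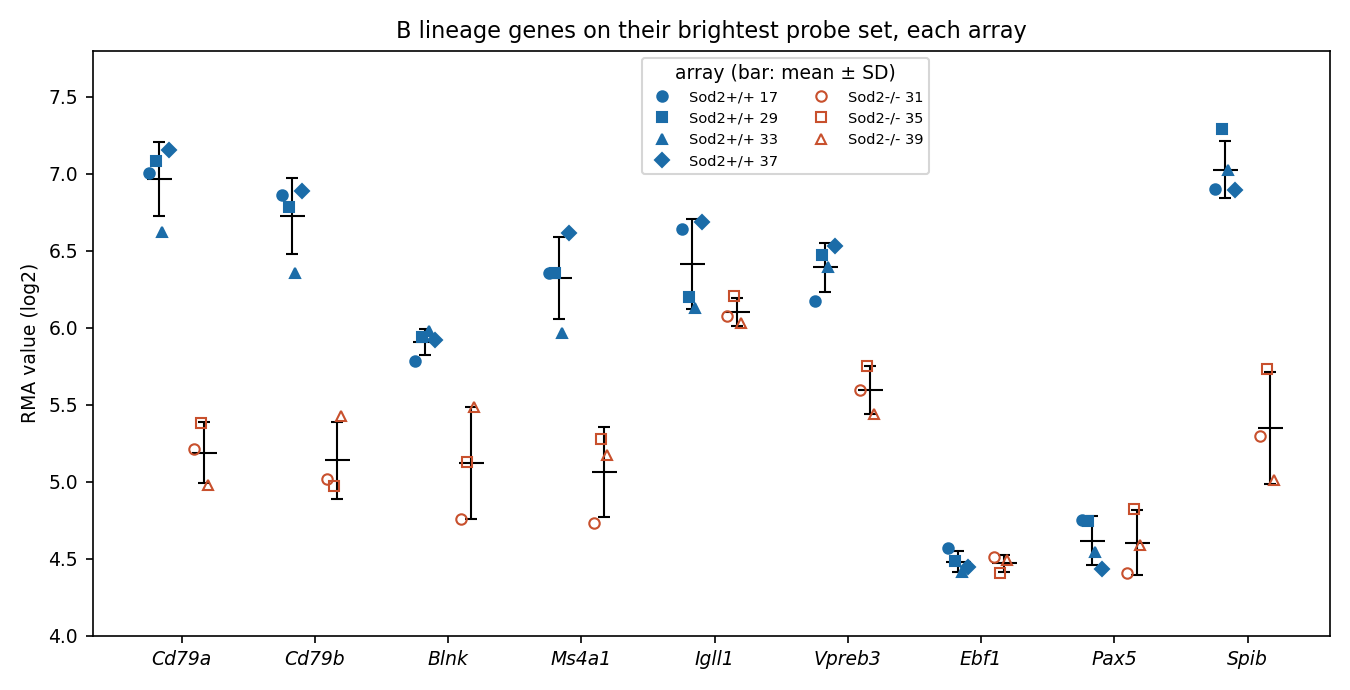
RMA values (log2, y axis) of the 9 B lineage genes on their brightest probe set in each of the 7 arrays, with filled blue symbols for Sod2+/+ (n = 4), open orange symbols for Sod2-/- (n = 3) and black bars for the mean ± SD. The genotypes are apart in Cd79a, Cd79b, Blnk, Ms4a1, Vpreb3 and Spib, and overlap in Igll1, Ebf1 and Pax5. Heights of different genes are not comparable, since each probe set has its own response.

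Cd79a and Cd79b encode the chains that carry the signal of the B cell receptor into the cell. Cd79a (1418830_at) had values of 7.01, 7.08, 6.62 and 7.15 in Sod2+/+ samples (replicates 17, 29, 33 and 37). In Sod2-/- samples (replicates 31, 35 and 39) they were 5.21, 5.38 and 4.98. The highest Sod2-/- sample lay 1.24 below the lowest Sod2+/+ sample, which was replicate 33. The means were 6.97 ± 0.24 (SD, n = 4) and 5.19 ± 0.20 (SD, n = 3), a difference of -1.78 (standard error 0.14) or 3.43-fold. Its partner Cd79b (1417640_at) had values of 6.86, 6.78, 6.36 and 6.89 in Sod2+/+ and of 5.02, 4.97 and 5.43 in Sod2-/- samples in the same order. Replicate 33 was again the lowest of its genotype, and replicate 39, the lowest Sod2-/- sample for Cd79a, was the highest for Cd79b. The difference was -1.58 (standard error 0.15), with a gap of 0.93 between the groups.

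Blnk encodes the adaptor that ties the kinase SYK to BTK and PLCG2 below the receptor. Its only probe set (1451780_at) gave 5.78, 5.94, 5.98 and 5.92 in Sod2+/+ and 4.76, 5.13 and 5.48 in Sod2-/- samples. The Sod2+/+ samples were close together (SD 0.08), the Sod2-/- samples were spread over a wider range (SD 0.36), and the gap between the groups was 0.30. The difference was -0.78 (standard error 0.15).

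Ms4a1 encodes CD20, a surface protein of B cells that is lost in plasma cells. On its brighter probe set (1423226_at) the values were 6.35, 6.36, 5.97 and 6.61 in Sod2+/+ and 4.73, 5.28 and 5.17 in Sod2-/- samples. No values overlapped, and replicates 33 and 31 were the lowest of their genotypes. The difference was -1.26 (standard error 0.17), or 2.40-fold. The other probe set (1450912_at) was dim, at 3.56 to 3.87 in Sod2+/+ and 3.29 to 3.35 in Sod2-/- samples, and showed a difference of -0.41 (standard error 0.08) without overlap.

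Igll1 encodes λ5, a part of the surrogate light chain of the pre-B cell receptor. Vpreb3 encodes a protein of the same family that binds newly made immunoglobulin chains inside the cell. Vpreb3 (1422921_at) had values of 6.17, 6.47, 6.39 and 6.53 in Sod2+/+ and of 5.59, 5.76 and 5.44 in Sod2-/- samples. The groups were 0.42 apart, and the lowest Sod2+/+ sample was replicate 17, not 33. The difference was -0.80 (standard error 0.11), or 1.74-fold. Igll1 was unlike it. On 1420176_x_at, whose suffix marks probes that may match other transcripts too, Igll1 had values of 6.64, 6.20, 6.13 and 6.68 in Sod2+/+ and of 6.08, 6.20 and 6.03 in Sod2-/- samples. Replicates 29 and 33 lay among the Sod2-/- samples and replicates 17 and 37 above them, and the difference was -0.31 (standard error 0.15), or -0.17 after quantile normalization. On the dimmer 1420177_at it was 0.16 in the other direction (standard error 0.13), with Sod2+/+ values of 5.07 to 5.42 and Sod2-/- values of 5.14 to 5.64.

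The 3 transcription factors differed among themselves. Spib, an Ets family factor of B cells and plasmacytoid dendritic cells, had values of 6.90, 7.29, 7.02 and 6.89 in Sod2+/+ and of 5.30, 5.73 and 5.01 in Sod2-/- samples (1460407_at). The groups were 1.16 apart, and the difference was -1.68 (standard error 0.17), or 3.20-fold. Pax5, which holds cells to the B lineage, had a difference of -0.01 (standard error 0.12) on 1421765_at, with Sod2+/+ values of 4.43 to 4.75 and Sod2-/- values of 4.41 to 4.82. Its other probe set, 1454401_at, ran from 4.24 to 4.33 and from 4.32 to 4.43, with a difference of 0.08 (standard error 0.06). Both Pax5 ranges overlapped and lay near 4.48, the median of all probe sets.

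Ebf1, which opens the B cell program, had 5 probe sets, all with differences below 0 but of unlike size. The brightest, 1457441_at, covered 4.42 to 4.57 in Sod2+/+ and 4.40 to 4.51 in Sod2-/- samples, a difference of -0.01 (standard error 0.07). A dimmer one, 1416301_a_at, gave 4.15, 4.55, 4.23 and 4.18 in Sod2+/+ and 3.68, 3.74 and 3.69 in Sod2-/- samples. Only this Ebf1 probe set separated the genotypes, with a difference of -0.58 (standard error 0.10). The remaining 3 had differences of -0.21 (1448293_at), -0.19 (1416302_at) and -0.03 (1439789_at), and all 5 had Sod2+/+ means at or below the median of all probe sets. The choice of probe set therefore decided whether Ebf1 separated the genotypes.

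**Figure D2:**
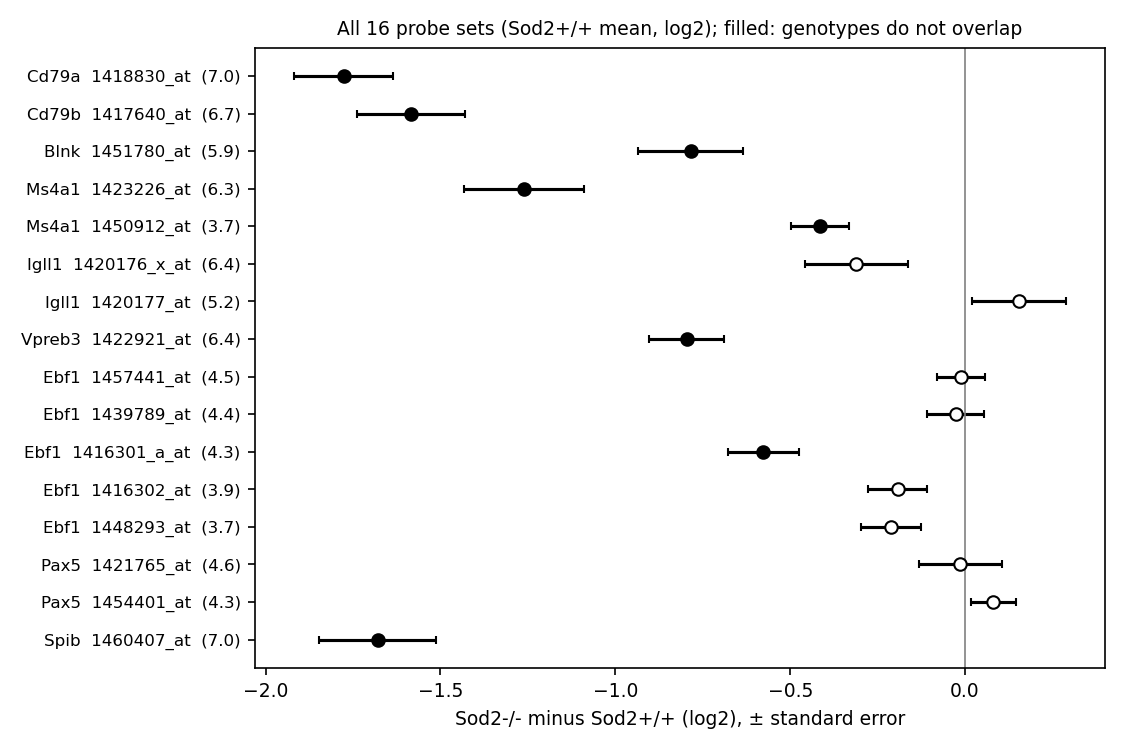
Difference between genotypes (x axis, Sod2-/- minus Sod2+/+, log2) with its standard error for all 16 probe sets of the 9 genes, each row giving gene, probe set and Sod2+/+ mean (log2) in brackets. Filled points are the 8 probe sets whose genotypes do not overlap, and the 5 Ebf1 probe sets run from -0.58 to -0.01.

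Ranked by adjusted p from limma, the called probe sets nearest the threshold were Ms4a1 at 1450912_at (-0.41, 0.0379) and Blnk (-0.78, 0.0342). The nearest outside it were Ebf1 at 1448293_at (-0.21, 0.223) and 1416302_at (-0.19, 0.255). Size gives another order. Brightness went with the number of calls on the whole array, and 8 of the 9 genes were above the median brightness of all probe sets. Among probe sets with a mean of 6 to 7, where 5 of the 9 genes lay, 9.02% were called lower and the median difference was -0.11. At 5 to 6 it was 3.02% and 0.04, with 2 of the genes, and at 4 to 5 it was 0.391% and 0.06, also with 2.

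How the genes varied inside a genotype was not used to choose them. Deviations from the mean of the array's own genotype showed no single order of the arrays shared by all 9 genes. Sod2+/+ replicate 33 was the lowest of its genotype in 5 of the 9 genes, with a mean deviation of -0.16, and replicate 37 was the highest in 5. Among Sod2-/- samples replicate 35 was the highest in 6 and replicate 39 the lowest in 4. Replicate 33 deviated by -0.35 in Cd79a, -0.36 in Cd79b and -0.36 in Ms4a1, and by 0.07 in Blnk, and it was close to its genotype's mean in Vpreb3 and Spib. Over the 36 pairs of genes and 7 arrays, the correlation of these deviations ran from -0.77 (Vpreb3 with Ebf1) to 0.67 (Vpreb3 with Spib), and Cd79a with Cd79b had 0.27. The points share arrays and their scaling, so these are descriptions.

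**Figure D3:**
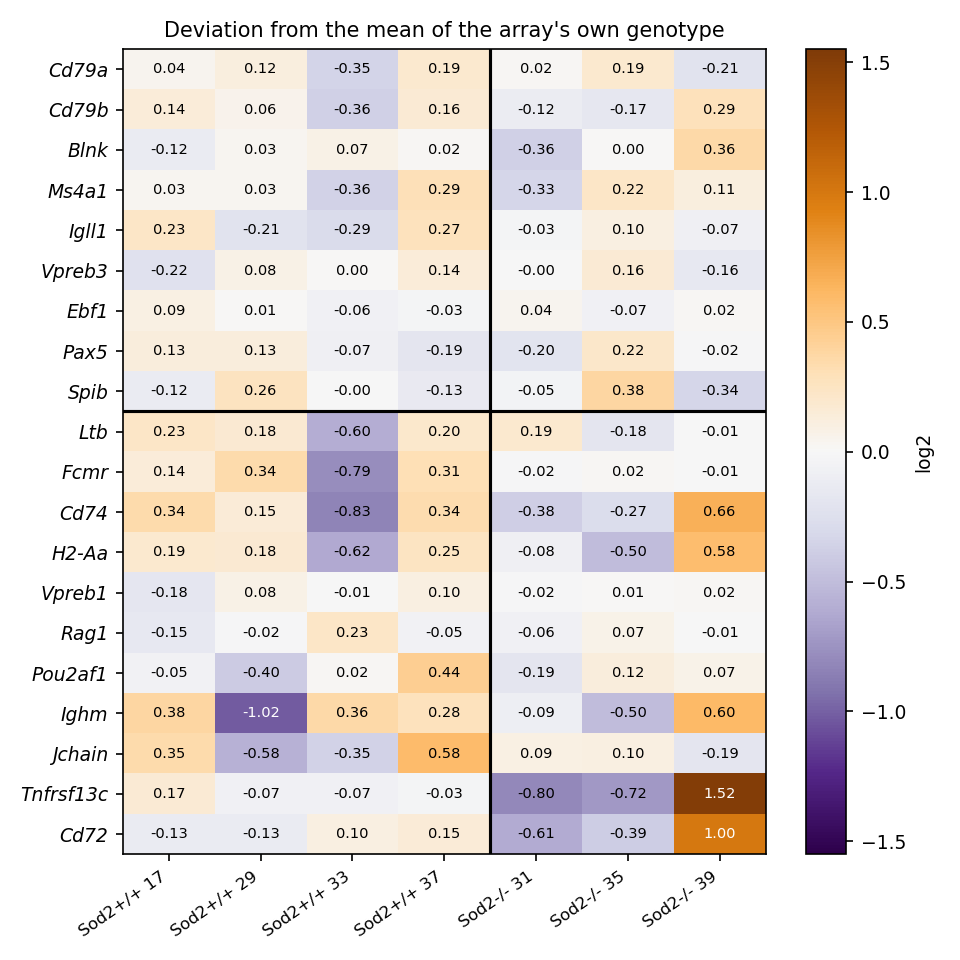
Deviation of each array (columns) from the mean of its own genotype (log2, color and printed number) for the 9 genes, above the black line, and for 11 other B lineage genes chosen after their values were seen, below it. Sod2+/+ replicate 33 is low in Cd79a, Cd79b, Ms4a1, Ltb, Fcmr, Cd74 and H2-Aa and near its genotype's mean in Vpreb3, Spib and Vpreb1, and Sod2-/- replicate 39 is high in Tnfrsf13c (1.52) and Cd72 (1.00).

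The same array stood out among genes of mature B cells and of antigen presentation. In Sod2+/+ replicate 33, Ltb, a cytokine of lymphocytes, had a log2 value of 5.97 against 6.75 to 6.80 in the other 3. Fcmr, the receptor for IgM, was at 4.86 in that replicate and at 5.79 to 5.99 in the others, and 4.72 to 4.76 in the Sod2-/- samples. Precursor genes did not set it apart in this way: Vpreb1, the partner of λ5, was at 5.55 there and at 5.38 to 5.65 in the others, and Rag1, which cuts the antigen receptor genes, was at 4.81 there, the highest of its genotype. Sod2+/+ replicate 29 was the lowest of its genotype in Ighm, Igk and Jchain, with Ighm, the IgM heavy chain, at 10.44 against 11.73 to 11.84, while its Cd79a and Spib were above the genotype's mean.

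The genes whose deviations were most like the mean of the 9 (Pearson r over the 7 arrays, among 5973 brighter and more variable genes) were Hspa8, a heat shock family chaperone (0.96), Mcu, the calcium channel of the mitochondrial inner membrane (0.95), Dusp19 (0.95), Serpinb6a (0.95) and Ccdc97 (0.95). In all, 12 genes were above 0.9 and 1 was below -0.9. With 7 arrays and 5973 genes, r values this high can arise by chance. None was tested, so the order of genes is a description. None of the 5 is in a B lineage list used here, and they overlapped between genotypes.

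Fluidics station and chip lot are known for each array. Station 1 held Sod2+/+ replicates 17 and 29 and Sod2-/- replicate 31, and station 2 the others. Within stations 1 and 2, the difference was -1.83 and -1.71 for Cd79a, -1.80 and -1.43 for Cd79b, and -1.80 and -1.59 for Spib. For Ms4a1 it was -1.63 and -1.06, for Blnk -1.10 and -0.65, and for Vpreb3 -0.73 and -0.87. The direction of these 6 within a station was fixed, since their genotypes do not overlap, so the values show the sizes alone, and station 1 holds 1 Sod2-/- array. Pax5 was at -0.34 in station 1 and 0.22 in station 2. Sod2-/- replicate 35 was run on chips of the same lot as the Sod2+/+ group, and replicates 31 and 39 on another lot. Replicate 35 alone against the Sod2+/+ arrays of its lot gave -1.59 for Cd79a, -1.75 for Cd79b, -1.30 for Spib, -1.04 for Ms4a1, -0.78 for Blnk and -0.64 for Vpreb3. In that chip lot a lone Sod2-/- sample is assumed to vary like the Sod2+/+ group. Chip lot as a block brought the called probe sets of the 16 from 8 to 3, and without Sod2+/+ replicate 37 or without Sod2-/- replicate 35 there were 5.

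**Figure D4:**
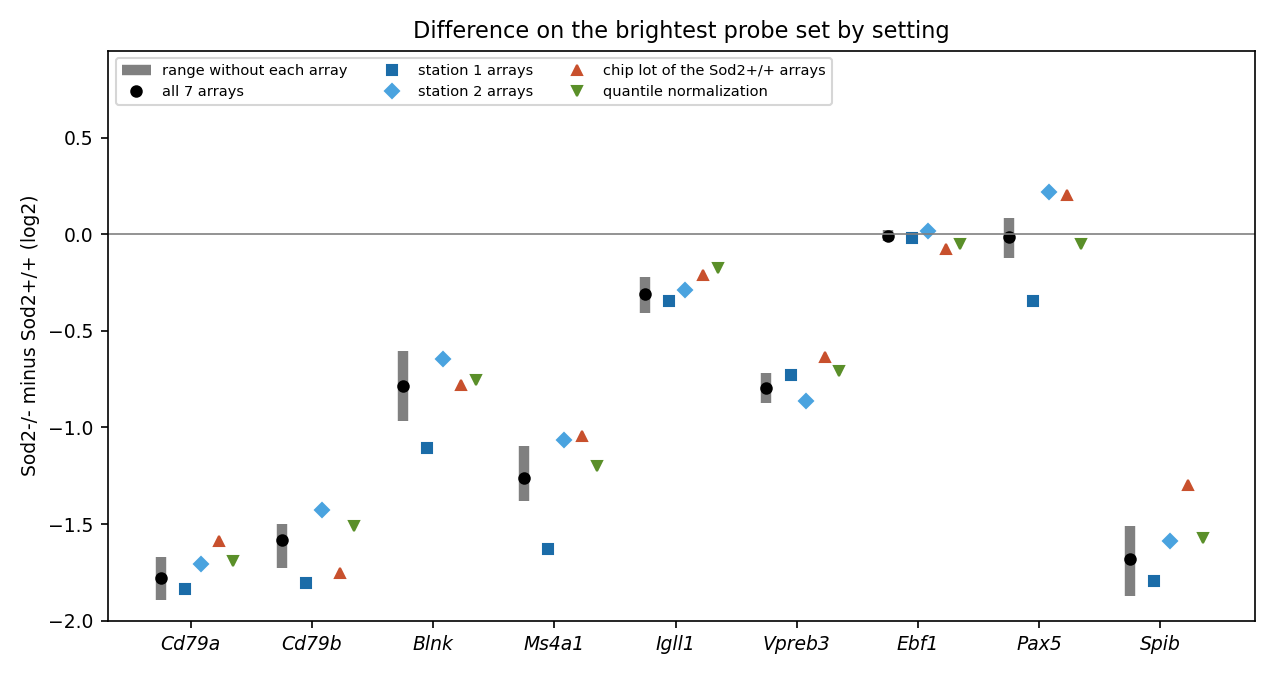
Difference between genotypes (y axis, Sod2-/- minus Sod2+/+, log2) of the 9 genes on their brightest probe set with all 7 arrays, within each fluidics station, within the chip lot of the Sod2+/+ arrays and after quantile normalization, with grey bars for the range over fits that leave out 1 array each. Cd79a runs from -1.89 to -1.59 over the settings shown, and Pax5 is on both sides of 0.

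Beyond these 9, 83 of 98 other listed B lineage genes had a probe set of their own. Of the 83, limma called 10 lower and 0 higher in Sod2-/- samples, against 4.47% of all genes called lower. At an unadjusted p under 0.05, 31 of the 83 were lower and 3 higher, where 18.4% of all genes were lower and 6.68% higher. The median of the 83 was -0.20. The count called lower by limma was 2 without Sod2+/+ replicate 29 and 3 without replicate 37. It was 3 without Sod2-/- replicate 35, 4 without replicate 39, and 11 without Sod2+/+ replicate 33. Some of these genes were in a list of B cell markers examined earlier on the same arrays, so they are not independent evidence.

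**Figure D5:**
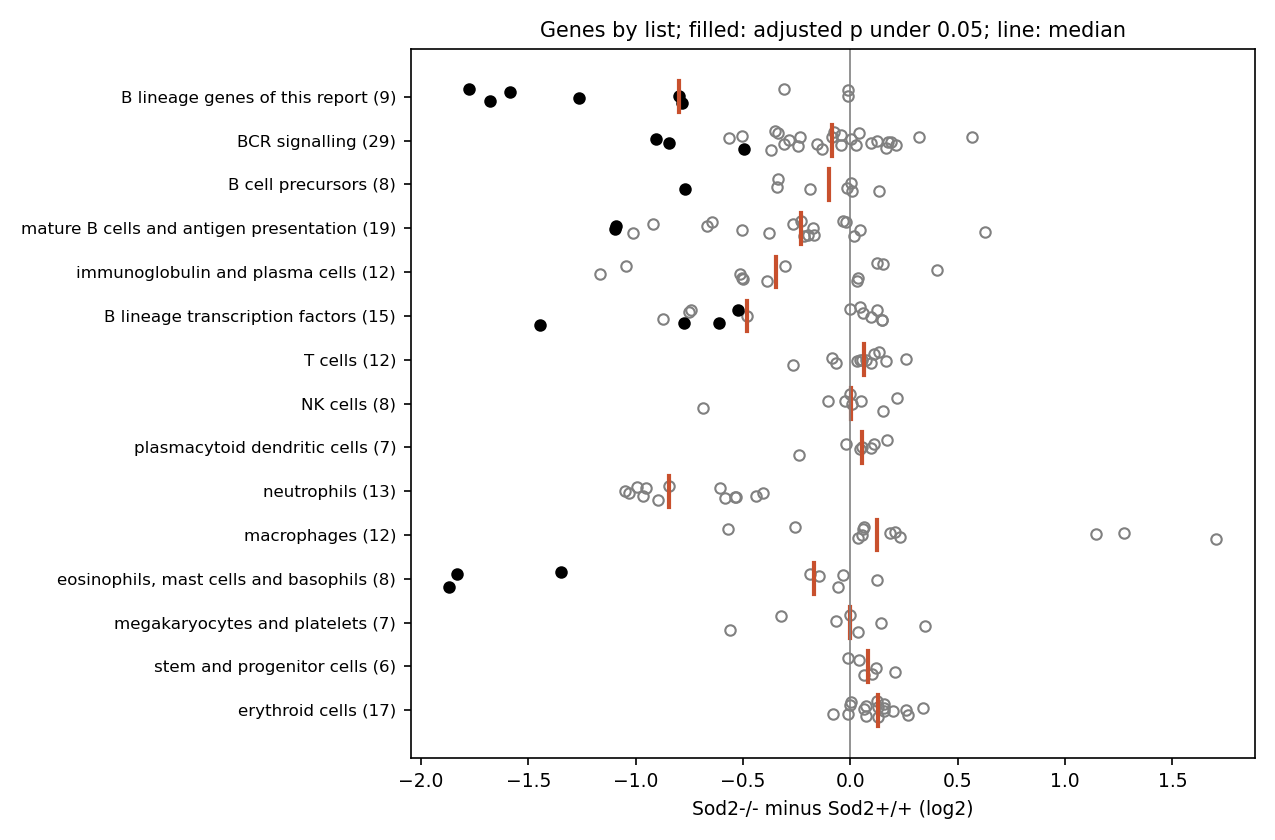
Difference between genotypes (x axis, Sod2-/- minus Sod2+/+, log2) for each measured gene of the lists (y axis, number of genes in brackets), with filled points for an adjusted p under 0.05 from limma and an orange line at the list's median. The top row holds the 9 genes described here, 6 of them filled, and no list has a filled point above 0.

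Transcription factors of the B lineage had the lowest median of the 5 lists, -0.48 over 15 genes. Of these 15, 0 rose and 4 fell (26.7%, against 4.47% of all genes). Pou2af1, the coactivator that joins Oct factors at the octamer, had values of 6.06, 5.71, 6.13 and 6.55 in Sod2+/+ and of 4.48, 4.79 and 4.74 in Sod2-/- samples. It did not overlap and fell by 1.44 on the log2 scale (standard error 0.18, adjusted p = 0.0114 by limma). Irf8 was at -0.77 (adjusted p = 0.0223), Ikzf1, which encodes Ikaros, at -0.61 (adjusted p = 0.025), and Tcf4 at -0.52 (adjusted p = 0.0455). Irf8 and Ikzf1 are also used by other blood lineages. Bcl11a, Bach2 and Foxo1, factors of the same lineage, had differences of 0.15, 0.12 and 0.04, and none passed the test. The summed linear level of the list was 1499 to 1813 in Sod2+/+ and 1099.7 to 1236 in Sod2-/- arrays.

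Among 29 genes of B cell receptor signaling, where the median was -0.09, 0 rose and 3 fell (10.3%, against 4.47% of all genes). They are Cd81, a tetraspanin of the cell surface (-0.91, adjusted p = 0.0248 by limma), Rac2, a small GTPase of blood cells (-0.85, adjusted p = 0.0386), and Inpp5d, which encodes the inositol phosphatase SHIP1 (-0.49, adjusted p = 0.0258). All 3 also act outside B cells. The kinases that Blnk joins did not pass: Syk was at -0.23 and Btk at -0.35, and Plcg2, their substrate, at -0.37. Cd22, an inhibitory receptor of B cells, was at -0.34, and its values of 6.70 to 6.98 in Sod2+/+ and 6.28 to 6.75 in Sod2-/- samples overlapped.

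Of 8 precursor genes, 0 rose and 1 fell (12.5%, against 4.47% of all genes), with a median of -0.10. Vpreb1 was at 5.38, 5.64, 5.55 and 5.65 in Sod2+/+ and at 4.76, 4.79 and 4.80 in Sod2-/- samples, and fell by 0.77 (adjusted p = 0.00759 by limma). It is the partner of Igll1 in the surrogate light chain, whose values overlapped. Dntt, which adds bases at antigen receptor joins, and Rag1 were at -0.34 and -0.34 without overlap and did not pass (adjusted p = 0.0682 and 0.0948). Rag2 was at 0.13 and Il7r, the receptor for the main growth factor of precursors, at -0.01.

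Of 19 genes of mature B cells and antigen presentation, 0 rose and 2 fell (10.5%, against 4.47% of all genes), with a median of -0.23. Ltb was at -1.10 (adjusted p = 0.0304 by limma) and Cd37, a tetraspanin of mature B cells, at -1.09 (adjusted p = 0.0236). The class II invariant chain Cd74 was at -1.01 and did not pass (adjusted p = 0.136): its Sod2+/+ values were 8.28 to 9.45, and Sod2-/- replicate 39, at 8.75, lay above Sod2+/+ replicate 33. Replicate 39 was also far from the other 2 Sod2-/- samples in Tnfrsf13c, the receptor for the survival factor BAFF, at 8.33 against 6.01 and 6.10. None of the 12 immunoglobulin and plasma cell genes passed the test by limma, with 4 lower and 0 higher at an unadjusted p under 0.05 and a median of -0.35. Jchain, which joins IgM and IgA units, did not overlap at -1.16 (adjusted p = 0.0515), and Ighm was at -1.04 (adjusted p = 0.165).

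Markers of other marrow cells were measured beside these genes, and their part in the results was not tested. Of 73 such markers 3 fell and 0 rose by limma, with a median of 0.01, and the share that fell, 4.11%, was near the 4.47% of all genes. All 3 belong to eosinophils and basophils: Epx, the eosinophil peroxidase, was at -1.87 (adjusted p = 0.0221), Prg2, a major protein of eosinophil granules, at -1.83 (adjusted p = 0.0286), and Mcpt8, a basophil protease, at -1.35 (adjusted p = 0.0258). The list of eosinophil, mast cell and basophil genes held 8, with a median of -0.17. Its uncalled genes Cpa3, Fcer1a, Gata2 and Ms4a2 were at -0.19, -0.15, -0.06 and -0.03, and Ccr3 was at 0.12. The 8 genes summed to 1135 to 2352 in Sod2+/+ and 496 to 733 in Sod2-/- arrays on the linear scale. Bright genes such as Prg2 and Epx weigh most in that sum. The count of calls was 11 of the 73 without Sod2-/- replicate 31, and 0 without Sod2+/+ replicate 29 or 37 or Sod2-/- replicate 35 or 39.

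All 13 neutrophil genes were below 0, with a median of -0.84, 0 called by limma and 11 lower at an unadjusted p under 0.05. Their summed linear level was 35193 to 44111 in Sod2+/+ arrays and 35018, 16829 and 23249.6 in Sod2-/- replicates 31, 35 and 39. Replicate 31 thus lay next to the Sod2+/+ arrays in neutrophil genes. Its Cd79a value of 5.21 was below the lowest Sod2+/+ value of 6.62, a position fixed by the lack of overlap in Cd79a. Replicate 35, the lowest in neutrophil genes, was the highest Sod2-/- sample in 6 of the 9 genes and the lowest in 2, Cd79b and Ebf1. A link between neutrophil and B lineage genes was not tested.

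Macrophage genes had a median of 0.12, 0 of 12 called by limma and 1 lower at an unadjusted p under 0.05, with summed levels of 2685 to 3659 in Sod2+/+ and 1628 to 3181 in Sod2-/- arrays. C1qa, C1qb and C1qc, subunits of the first complement component, were at 7.65, 8.09 and 8.33 in Sod2-/- replicate 39 and at no more than 4.68 in the other 6 arrays. Of 12 T cell genes 0 were called by limma, with 1 lower and 1 higher at an unadjusted p under 0.05 and a median of 0.06, and their summed level was 511 to 540.1 in Sod2+/+ and 527 to 593 in Sod2-/- arrays. For 8 NK cell genes the count was 0 (1 lower at an unadjusted p under 0.05), the median 0.00 and the summed level 221 to 299.6 and 199 to 237. In 7 megakaryocyte genes it was 0 (1 lower unadjusted), with 388 to 458 and 368 to 397, and in 6 stem and progenitor genes 0 (0 unadjusted), with 173 to 189.9 and 192 to 202. No brighter than the median of all probe sets were 6 T cell, 4 NK cell, 1 megakaryocyte and 2 stem and progenitor genes. At a mean of 4 to 5, 0.391% of all probe sets were called lower, so 0 calls in dim genes say little about those cells.

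Spib is also a gene of plasmacytoid dendritic cells. Of the 7 measured markers of those cells, 0 were called by limma and 0 were past an unadjusted p of 0.05 in either direction, with a median of 0.05 and summed levels of 303 to 334 in Sod2+/+ and 309 to 331 in Sod2-/- arrays. Siglech, their defining surface receptor, was at 4.84 to 4.91 in Sod2+/+ and at 4.77 to 4.94 in Sod2-/- samples. These values are not far above 4.48, the median of all probe sets, and 2 of the 7 markers were no brighter than it. The part of those cells in the Spib values was not tested.

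Signs of RNA quality moved with genotype in 1 of 2 measures. The log2 signal of the 3′ probe set of Gapdh minus that of its 5′ probe set was 1.24 to 1.45 in Sod2+/+ and 1.10 to 1.21 in Sod2-/- arrays, without overlap. For Actb it was 0.67 to 0.87 and 0.69 to 0.78, with overlap. Its part in the results on the B lineage genes was not tested.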

How the data were processed

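The authors deposited log2 values of Mouse Genome 430 2.0 arrays, made by RMA in GeneSifter, and the submitters' processing notes also name GCOS 1.3.037. No source used here says whether RMA included the fourth Sod2-/- array, which was not analysed here. After 64 control probe sets were left out, nothing else was filtered or rescaled. The annotation matched 34945 probe sets to 1 gene, 932 to several and 9160 to none. The test was limma 3.58.1 (R 4.3.3; lmFit and eBayes with no covariate), adjusted by Benjamini-Hochberg over 45037 probe sets with a threshold of 0.05, and the fit was tested on simulated data. Array weights used statmod 1.5.0. The genes described and the lists were chosen with earlier results of these data known. The rule for other named genes takes, from each list, the 3 largest differences among calls, or the 2 largest where none passed, the 3 defining markers of each cell type, and the 5 genes most like the 9. Other genes, such as Cd22, Fcmr, Rag1, Cd74 and Tnfrsf13c, were named after their values were seen. Station and lot were read from each array's settings file. Promoters are RefSeq entries. Alternatives were the methods' t-test (equal and unequal variances), trend and robust eBayes, array weights, quantile and median scaling, an offset of 32, brighter probe sets alone, station and lot as blocks or alone, the mean over a gene's probe sets, and leaving out each array.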

Additional observations from a re-analysis of the deposited data

Results flagged for a closer look

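In 69 groups of 4 Sod2+/+ samples checked for a sample far from the others, 9 were found, and chance gives about 1 in 20 groups. None was in a probe set of the 9 B lineage genes. Sod2+/+ replicate 33 was apart in Ltb (5.97, others 6.75 to 6.80), Cd37 (7.14, others 7.48 to 7.54), Hspa8 (10.30, others 10.64 to 10.65), Serpinb6a (5.03, others 5.27 to 5.30) and Ccdc97 (6.43, others 6.73 to 6.79). Hspa8, Serpinb6a and Ccdc97 entered this check because their deviations followed the mean of the 9 genes, in which replicate 33 is low. Sod2+/+ replicate 29 was apart in Ighm (10.44, others 11.73 to 11.84) and Ncr1, a receptor of NK cells (3.70, others 3.95 to 3.98). Sod2+/+ replicate 37 was apart in Klrd1, another NK cell receptor (4.36, others 3.82 to 3.84), and Elane, the neutrophil elastase (10.71, others 10.25 to 10.32). The 3 Sod2-/- samples are too few for this check.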

How the results depend on the processing

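No paired analysis was possible because the genotypes share no replicate number and no source used here says which samples were sorted as a pair. No value turned its direction past a threshold. Of the 16 probe sets of the 9 genes, 8 were called lower. The count was 0 by both forms of the methods' t-test and in each station alone, 3 with chip lot as a block, 4 with only the lot that holds the Sod2+/+ arrays and 4 with the offset, and 5 to 7 without each array in turn. The equal-variance t-test called 4 of all probe sets and station 1 or 2 alone 0, so those counts say nothing about stability. At an unadjusted p under 0.05, 8 and 7 of the 16 were lower by the equal- and unequal-variance t-test and 9 in each station. The median over the genes, -0.80, was -0.53 with the offset, -1.03 on brighter probe sets alone, -1.10 in station 1, and -0.96 to -0.77 without each array. Of the other B lineage genes, 10 were called lower, against 0 by either t-test and in either station, 4 with the lot block, 3 in the lot alone, 1 with the offset and 2 to 11 without each array. Of the other cell type markers it was 3, against 0 by either t-test, in either station and with the offset, 5 on brighter probe sets, 8 with the lot block, 12 in the lot alone and 0 to 11 without each array. Erythroid markers called higher were 0, against 1 after quantile normalization, 1 with the station block and 2 by the mean over a gene's probe sets. The cause was not tested. The offset shrinks differences of dim probe sets by its construction, and 1 station or 1 lot leaves fewer arrays.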
